A study of Mus musculus with 24 samples.

Results

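The comparison described here is the difference between 2 lines of RAW264.7 cells in their response to 5 h of lipopolysaccharide (LPS), the endotoxin of Gram-negative bacteria. RAW264.7 is an established mouse macrophage-like line. One line carried a construct that overexpresses Tbc1d23, and the control line carried a construct for chloramphenicol acetyltransferase (CAT), a bacterial enzyme. For each gene the response of the Tbc1d23 line (5 h minus 0 h) was set against the response of the CAT line (5 h minus 0 h), on 12 of the 24 arrays of the series, 3 for each line and time. The other 12 arrays hold 1 h and 3 h of LPS. Both lines were grown in G418 and exposed to 20 ng/ml LPS or left unexposed, so the groups were Tbc1d23 0 h, Tbc1d23 5 h, CAT 0 h and CAT 5 h. Each construct is represented by 1 line, so an effect of the construct and any other difference between the lines cannot be told apart. The sources used here do not give the promoter that drives the constructs. The replicates are called biological, but nothing says that they were separate cultures, so p-values measure only the spread between these arrays.

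LPS is sensed by the receptor TLR4 with CD14 and MD-2, and signals through MyD88 to NF-kB and the MAP kinases and through TRIF to IRF3 and interferon beta. Secreted interferon then acts through its receptor on transcription factors that bind the interferon-stimulated response element (ISRE) in the promoters of antiviral genes, which makes up a later wave of the response. In macrophages LPS also lowers many transcripts, among them those of the cell cycle and of quiescence regulators. Tbc1d23 belongs to the TBC domain proteins, a family whose members act on Rab GTPases in membrane traffic.

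Levels are log2 processed signals minus the 75th percentile of their array, so 1 unit is a 2-fold difference and a level of 0 lies at that percentile. Responses and their differences are given as fitted log2 values ± the standard error of the limma fit (n = 3 arrays per group), and the difference is always Tbc1d23 minus CAT, so a negative difference at an induced gene is a smaller rise in the Tbc1d23 line. A response or difference is called where its limma p, adjusted over 15067 genes by the Benjamini-Hochberg method, is under 0.05, and values in 3 arrays are given in the order of replicates 1, 2 and 3. A probe not well above background on every array of a group has only a bound there. Its fold is then given as at least the bright group's mean over the dim group's mean of, on each array, the higher of the probe's signal and the lowest signal that was well above background. Probes differ in brightness, so no level is set against that of another gene.

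Between 42.1% and 69.5% of the probes of an array were well above background, and no spot was saturated. Both ends were Tbc1d23 arrays at 0 h, replicate 2 the lowest and replicate 1 the highest, while the CAT arrays ran from 48.4% to 54.0%. On Tbc1d23 0 h replicate 2 the lowest signal well above background was -3.33, higher than on any other array. These arrays are part of the baseline of every Tbc1d23 response. The 4 arrays of a slide held the 4 times of 1 replicate of 1 line, so the responses were taken within slides. Slide numbers fell into 2 runs, one with Tbc1d23 replicates 1 and 2 and the other with Tbc1d23 replicate 3 and the CAT replicates. A probe of Tbc1d23 itself (chr16:57169122-57169181 on mm9) read 2.95, 3.43 and 3.34 on the CAT arrays and 3.05, 3.20 and 3.57 on the Tbc1d23 arrays at 0 h. The lines did not differ there beyond the spread (difference 0.03, adjusted p = 0.923, limma). Its difference in response was -0.23 ± 0.16 (adjusted p = 0.278). A further probe stood 0.36 higher in the Tbc1d23 line at 0 h (adjusted p = 0.108) and 0.47 higher at 5 h (adjusted p = 0.0302). The sources used here do not say which part of the transcript the construct carries, so these probes may check nothing about it.

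The response at 5 h was smaller in the Tbc1d23 line in both directions. The CAT response was called at 8666 of 15067 genes (57.5%) and the Tbc1d23 response at 2335 (15.5%). The difference between the responses was called at 5978 genes, 39.7% of those tested. It was below 0 at 2904 genes (19.3%) and above 0 at 3074 (20.4%), and it was called and at least 2-fold at 1260 genes below 0 (8.36%) and 1047 above 0 (6.95%). Over all genes the median response was 0.06 in the CAT line and 0.00 in the Tbc1d23 line, and the interquartile range of the responses was 0.852 against 0.338. The responses of the 3 slides of one line lay entirely apart from those of the other line at 7707 genes (51.2%). An exact permutation test of 3 slides against 3 cannot go below a two-sided p of 0.1, so single genes rest on the fit across all genes. In the run with both lines, which sets 1 Tbc1d23 slide against 3 CAT slides, 3579 differences were called. The lone Tbc1d23 slide is assumed there to vary like the CAT slides, so values within this run have no replicate check of the Tbc1d23 line. The scaling of the arrays moves the balance of directions. Quantile normalization gave 2475 differences below 0 and 4171 above 0, the deposited values 2478 and 4130, and scaling to the array median 1102 and 3013, as the median difference over all genes moved from -0.03 to 0.11, 0.11 and 0.28.

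Genes were sorted by both responses, which describes the same arrays and is no further test. At 1505 genes the CAT response was called and at least 2-fold upward (9.99%). The Tbc1d23 line did not respond at 794 of these and the difference was called, which is a lost induction. Another 69 fell in the Tbc1d23 line (reversed), and 432 rose by a smaller amount (reduced), so that 1295 inductions (86.0%) were weakened. A kept induction, with a called rise in the Tbc1d23 line and the 95% interval of the difference inside 1 log2 unit either way, was found at 7.11% of the 1505. An enlarged induction was found at 4 genes, and 99 could not be placed. At 1548 genes the CAT response was called and at least 2-fold downward (10.3%). Of these, 763 repressions were lost, 10 reversed and 510 reduced, so that 1283 (82.9%) were weakened, while 92 (5.94%) were kept and 173 could not be placed. No repression was enlarged by the same limma rule. Within the run that holds both lines the weakened shares were 77.0% and 67.7%, with the same limit of 1 Tbc1d23 slide. The Tbc1d23 line alone met the 2-fold limit, with a called difference, in 16 gained inductions and 39 gained repressions. Only 7 and 3 of these were well above background on all 12 arrays, against 853 of the 1295 weakened inductions.

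**Figure D1:**
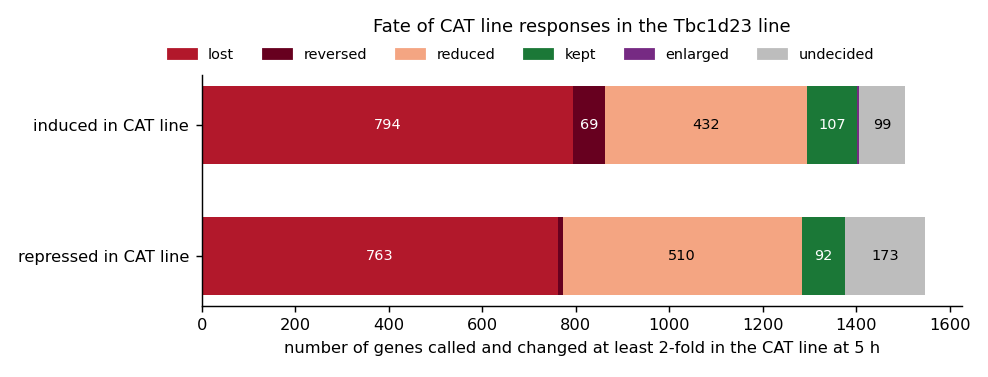
Stacked bars of the number of genes (horizontal axis) induced (1505) or repressed (1548) in the CAT line at 5 h, split by the response of the Tbc1d23 line into lost, reversed, reduced, kept, enlarged and undecided. Lost responses are the longest segment of both bars, at 794 induced and 763 repressed genes.

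The median CAT response of the weakened inductions was 1.99 and their median Tbc1d23 response 0.21. Lost inductions had medians of 1.72 and 0.06, reduced inductions 2.61 and 0.78, and reversed inductions 2.82 and -0.76. The weakened repressions had a median of -1.57 in the CAT line and -0.30 in the Tbc1d23 line, and among them the reduced ones had -1.91 and -0.56. Kept responses lay near the 2-fold limit in the CAT line, with medians of 1.16 and 0.65 for inductions and -1.12 and -0.60 for repressions. Their median differences were -0.56 and 0.56. The rule counts a called, smaller response as kept where the interval stays inside 1 log2 unit. A response near the 2-fold limit can therefore shrink and still be kept. Genes were also chosen by the response averaged over both lines. This choice uses the same arrays, and a large response in 1 line alone can pass it, so it is a description and no further test. At 296 genes the average response was called and at least 2 log2 units. Among these the difference was below 0 at 278 and above 0 at 3, against 19.3% and 20.4% of all genes, and not called at 15. Their median responses were 4.72 in the CAT line and 1.20 in the Tbc1d23 line. Among 685 genes with a called average response of -1 or less, the difference was above 0 at 592 and below 0 at 6, against the same 20.4% and 19.3%. It was not called at 87, and the median responses were -2.10 in the CAT line and -0.59 in the Tbc1d23 line.

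**Figure D2:**
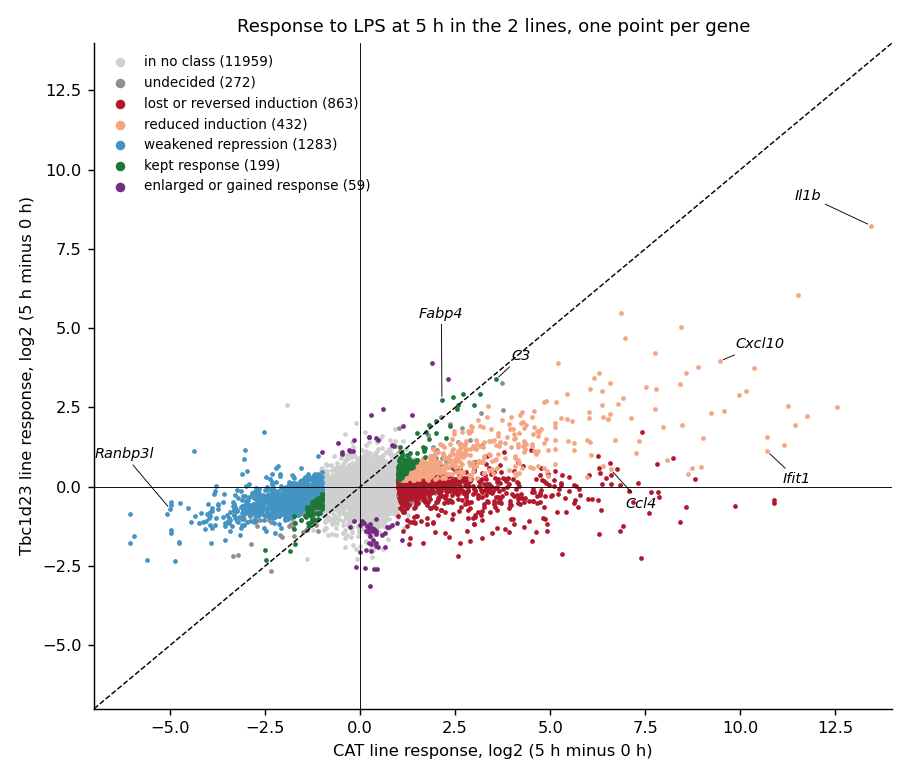
Response at 5 h of the CAT line (horizontal axis, log2) against that of the Tbc1d23 line (vertical axis, log2), 1 point per gene tested, coloured by response class, with the line of equal responses. Most induced and repressed genes lie nearer to 0 on the vertical axis than on the horizontal one, while C3 and Fabp4 lie near the line of equal responses.

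A smaller response can start from a different level, and the lines differed before LPS. At 0 h the Tbc1d23 line was higher at 25.2% of the genes tested and lower at 20%, and at 5 h higher at 29.4% and lower at 23.9%. Of the 1295 genes with a weakened induction, 586 were already higher in the Tbc1d23 line at 0 h and 215 lower. At 5 h 918 of them were lower in the Tbc1d23 line and 103 higher. Of the 1283 genes with a weakened repression, 495 were lower at 0 h and 250 higher, and at 5 h 1000 were higher and 54 lower. How much of the smaller response goes with the starting level was not tested.

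The antiviral interferon-stimulated genes rose strongly in the CAT line and hardly in the Tbc1d23 line. Of 38 tested, 37 rose in the CAT line, against 29.2% of all genes. In the Tbc1d23 line 8 rose, against 7.56% of all genes, and 8 fell, against 7.94%. The difference was below 0 at 37, against 19.3%. Their median response was 4.54 in the CAT line and -0.17 in the Tbc1d23 line (4.42 and -0.15 with genes not above background set at the lowest measurable signal of their arrays). Ifit1 encodes a protein that binds foreign RNA caps. Its level in the CAT line was -2.97, -3.78 and -3.11 at 0 h and 7.24, 7.49 and 7.53 at 5 h. The Tbc1d23 line read -1.74, -1.45 and -1.71 and then -0.53, -0.49 and -0.53. At 5 h every CAT array was thus far above every Tbc1d23 array, although the Tbc1d23 line started higher by 1.65. The responses were 10.71 ± 0.17 and 1.12 ± 0.17, and the difference was -9.59 ± 0.24 (adjusted p = 1.16e-12).

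Isg15 encodes a ubiquitin-like modifier. It read -0.74, -1.55 and -1.20 in the CAT line at 0 h and 6.97, 6.77 and 6.97 at 5 h, and -0.41, -0.38 and -0.47 and then 0.50, 0.58 and 0.17 in the Tbc1d23 line. Its small rise in the Tbc1d23 line passed the test, with responses of 8.07 ± 0.12 and 0.84 ± 0.12 and a difference of -7.23 (adjusted p = 6.49e-13). Usp18, which removes that modifier and dampens interferon receptor signalling, moved in opposite directions. In the CAT line Usp18 rose from 2.35, 1.51 and 1.75 to 7.37, 7.18 and 7.29. Its level fell in the Tbc1d23 line from 3.06, 3.12 and 3.31 to 2.14, 2.45 and 2.47. The groups did not overlap at either time, and the difference was -6.22 ± 0.18 (adjusted p = 5.15e-12).

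Many members rose in the CAT line with no called change in the Tbc1d23 line. Cmpk2, a mitochondrial nucleotide kinase, had responses of 7.66 ± 0.12 and -0.16 ± 0.12 (difference adjusted p = 3.80e-13). Oasl2, of the oligoadenylate synthetase family, had 7.31 ± 0.17 and 0.13 ± 0.17. The RNA sensors Ifih1 (5.49 and 0.29), Ddx58 (3.95 and -0.54) and Dhx58 (4.09 and -0.08) followed the same pattern. A small rise remained at Isg20, an exonuclease (8.62 and 0.39), at Zbp1, a sensor of Z-form nucleic acids (8.73 and 0.59), and at Rsad2, the antiviral enzyme viperin (11.43 and 1.95). Ifi27l2a was the member without a called difference. Mx1, a dynamin-like GTPase, was not well above background in the CAT line at 0 h or the Tbc1d23 line at 5 h, and its CAT level at 5 h was at least 40.1-fold its level at 0 h. A further probe of Mx1 gave a difference of -5.08, also called. Members of the Ifit and Oas families are close copies of each other, so their probes can share signal.

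Promoters are shown for 4 genes as examples of the induced and repressed groups, chosen after their values were seen. They are the 250 bases upstream of the RefSeq start on GRCm38.p6, written in the direction of the gene. For the interferon-stimulated genes the capitals mark the core of the interferon-stimulated response element (ISRE): GAAA, any 2 bases and GAAA again, or the same on the opposite strand. Ifit1 (chr19:34640639-34640888, plus strand) holds 2 of them at -104 to -95 and -85 to -76 from the start, and Isg15 (chr4:156200819-156201068, minus strand) holds 3 that overlap from -78 to -57.
Ifit1: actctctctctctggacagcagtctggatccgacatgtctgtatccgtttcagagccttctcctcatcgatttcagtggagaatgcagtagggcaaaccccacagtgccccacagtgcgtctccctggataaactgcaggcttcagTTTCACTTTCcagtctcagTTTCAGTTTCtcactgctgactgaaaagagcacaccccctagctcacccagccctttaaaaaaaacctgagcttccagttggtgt
Isg15: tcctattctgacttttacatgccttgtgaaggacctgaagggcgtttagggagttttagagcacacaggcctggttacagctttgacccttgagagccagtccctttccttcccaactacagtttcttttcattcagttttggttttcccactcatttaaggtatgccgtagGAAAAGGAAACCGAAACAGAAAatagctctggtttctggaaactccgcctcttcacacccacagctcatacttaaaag

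Among 10383 tested genes with a promoter entry, 3.31% held an ISRE core in this window on either strand. The share was 9.28% among weakened inductions (85 of 916). A core stood in 66 of 599 lost or reversed inductions, in 19 of 317 reduced ones (5.99%) and in 2 of 77 kept ones (2.60%). Of the antiviral list 12 of 27 held one, and of the interferon-inducible GTPases 8 of 9. These shares describe letters in a short window and were not tested.

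The interferon-inducible GTPases, which act on membranes around intracellular microbes, gave the same picture. Of 13 tested, 12 rose in the CAT line (against 29.2% of all genes), and 2 rose and 1 fell in the Tbc1d23 line (against 7.56% and 7.94%). The difference was below 0 at 12, against 19.3%. Their median responses were 5.66 and -0.23 (5.10 and -0.10 with dim genes at that bound). Ifi47 rose in the CAT line from -2.60, -2.82 and -2.88 to 3.55, 3.42 and 3.75 and fell in the Tbc1d23 line from -0.33, -0.35 and -0.73 to -1.0, -1.13 and -1.47. Its difference was -7.07 ± 0.14 (adjusted p = 1.93e-13), and the Tbc1d23 line stood above the CAT line at 0 h and below it at 5 h on every array. Irgm1, which acts in autophagy and in the control of its relatives, rose by 4.66 in the CAT line and had -0.29 in the Tbc1d23 line (adjusted p of that response = 0.0599). Gbp3 rose in both lines, by 7.97 ± 0.13 and 1.89 ± 0.13. Gbp2b was not well above background at 0 h in either line or in the Tbc1d23 line at 5 h, and its CAT level at 5 h was at least 510-fold that at 0 h and at least 490-fold that of the Tbc1d23 line at 5 h. Guanylate-binding proteins are near-identical copies in part, and signal between them can be shared.

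The signalling genes upstream of these moved less. Among 18 interferon receptors, STATs and IRFs, 13 rose in the CAT line and 4 in the Tbc1d23 line, against 29.2% and 7.56% of all genes. The difference was below 0 at 11 and above 0 at 3, against 19.3% and 20.4%. Irf7, the interferon-inducible factor that amplifies interferon production, read 1.13, 0.02 and 0.50 and then 4.51, 4.23 and 4.53 in the CAT line. The Tbc1d23 line read 0.13, -0.11 and -0.34 and then -0.09, -0.02 and -0.23, so its groups there overlap. The difference at Irf7 was -3.88 ± 0.23 (adjusted p = 6.65e-09). Stat2 and Irf1 rose in the CAT line (3.32 and 2.82) and fell in the Tbc1d23 line (-0.44 and -0.46). Irf8, a factor of the macrophage lineage, went the other way, with -0.05 ± 0.07 in the CAT line, which was not called, and a rise of 0.90 ± 0.07 in the Tbc1d23 line. Ifngr1, a chain of the interferon gamma receptor, fell in the CAT line (-1.02) and had 0.18 in the Tbc1d23 line, which was not called. Ifnb1, which encodes interferon beta, was not well above background at 0 h in either line. It rose at least 132-fold in the CAT line and at least 5.96-fold in the Tbc1d23 line, where at 5 h it stayed far lower. Its levels at 5 h were 2.42, 2.28 and 2.29 in the CAT line and -1.72, -1.47 and -1.32 in the Tbc1d23 line.

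Many cytokine genes kept part of their induction. Of 19 tested, 18 rose in the CAT line and 10 in the Tbc1d23 line, against 29.2% and 7.56% of all genes. The difference was below 0 at 18, against 19.3%. The median responses were 4.28 and 1.01 (4.28 and 0.60 with dim genes at their bound). Tnf, the gene of tumour necrosis factor, rose in the CAT line from -0.19, -0.51 and -0.68 to 6.27, 5.93 and 5.98. The rise in the Tbc1d23 line was from 1.34, 1.34 and 1.71 to 3.45, 3.57 and 3.73. The Tbc1d23 arrays lay between both sets of CAT arrays at either time, and the difference in response was -4.40 ± 0.13 (adjusted p = 5.95e-12). Il1b reached 9.51, 9.59 and 9.50 in the CAT line at 5 h and 2.87, 2.95 and 2.62 in the Tbc1d23 line, where it was at least 123-fold above 0 h. Csf1, the macrophage growth factor gene, rose by 6.78 ± 0.17 and 2.60 ± 0.17. Il1rn, which encodes the interleukin-1 receptor antagonist, rose by 6.06 ± 0.14 and 1.01 ± 0.14, and Osm, the gene of oncostatin M, by 4.28 and 1.29. Il10 and Il18 rose in the CAT line (3.39 and 2.35) without a called rise in the Tbc1d23 line (0.60 and 0.01). Il6 and Il1a were not well above background at 0 h in either line. Il6 rose at least 1036-fold in the CAT line and at least 1.3-fold in the Tbc1d23 line, and Il1a at least 2072-fold and at least 2.4-fold. Il33, of the same family as Il1a, was well above background in the CAT line at 5 h and not in the other 3 groups, at least 597-fold over the Tbc1d23 line at 5 h.

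Chemokine genes were similar. All 17 tested rose in the CAT line and 10 rose in the Tbc1d23 line, against 29.2% and 7.56% of all genes. The difference was below 0 at 16 and above 0 at 1, against 19.3% and 20.4%, and the median responses were 5.64 and 0.88. Cxcl10, which draws T cells, rose from -0.94, -0.95 and -0.98 to 8.41, 8.48 and 8.63 in the CAT line. It rose from 0.20, 0.54 and 0.30 to 4.33, 4.50 and 4.11 in the Tbc1d23 line. The rise in the Tbc1d23 line is clear on every slide, but the difference was -5.50 ± 0.12 (adjusted p = 3.80e-13). Ccl5 rose by 5.63 ± 0.09 and 1.17 ± 0.09. Ccl2, which draws monocytes, rose by 6.37 ± 0.16 and 2.21 ± 0.16. Cxcl2, a neutrophil attractant that was not well above background in the CAT line at 0 h, rose at least 855-fold there. Its fitted response in the Tbc1d23 line was 6.04 ± 0.21.

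Some chemokine genes began high in the Tbc1d23 line. Ccl4 read 2.50, 2.71 and 2.50 in the CAT line at 0 h but 7.68, 7.83 and 7.71 in the Tbc1d23 line, a difference of 5.17. At 5 h it read 9.16, 9.19 and 9.13 and 8.42, 8.40 and 8.04. The response was 6.59 ± 0.10 against 0.55 ± 0.10, while the lines differed at 5 h by only -0.87. Ccl3 was likewise 3.82 higher at 0 h, with responses of 3.76 and 0.29, the latter not called. Traf1, an adaptor of TNF receptors and a target of NF-kB, started 2.80 higher in the Tbc1d23 line and reached 7.18, 7.21 and 7.36 in the CAT line and 7.02, 7.14 and 7.05 in the Tbc1d23 line. At 5 h the lines did not differ beyond the spread at Traf1 (-0.18, adjusted p = 0.251), though the difference in response was -2.98 ± 0.14 (adjusted p = 5.42e-10). Ier3, an early response gene, started 4.28 higher, Fosl1, an AP-1 subunit, 3.46 higher and Timp1, an inhibitor of metalloproteinases, 3.15 higher. Ptgs2, the gene of cyclooxygenase-2, was not well above background in the CAT line at 0 h and was at least 45.3-fold brighter in the Tbc1d23 line at that time.

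**Figure D3:**
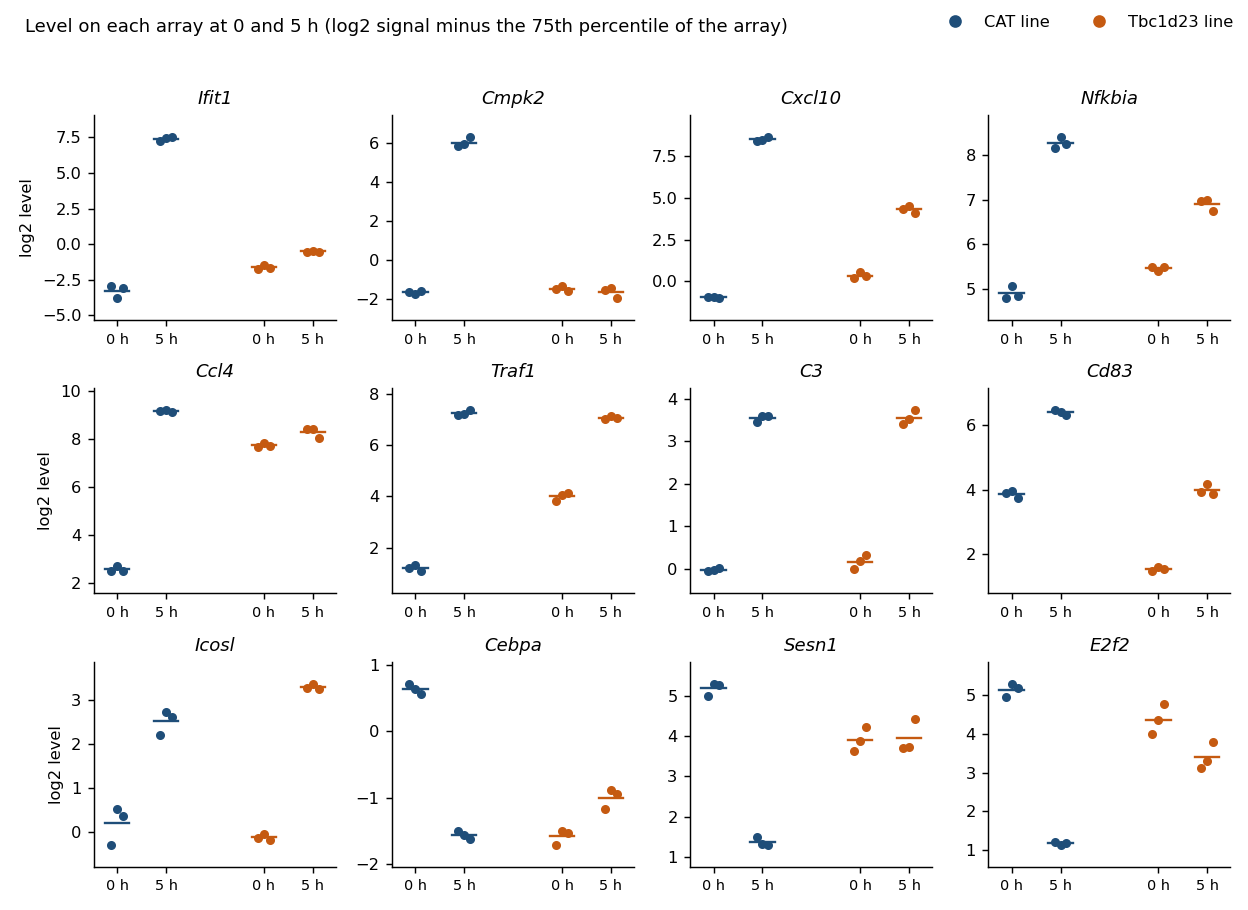
Level of 12 genes on each of the 12 arrays (vertical axis, log2 signal relative to the 75th percentile of the array) at 0 h and 5 h in the CAT and the Tbc1d23 line, with points for arrays and bars for group means. Ifit1 and Cmpk2 separate widely at 5 h, Ccl4 and Traf1 start high in the Tbc1d23 line, C3 runs in parallel in both lines, and Sesn1 falls in the CAT line while the Tbc1d23 line stays near its level.

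NF-kB subunits and their feedback genes had the highest share of called rises in the Tbc1d23 line among the lists. Of 17 tested, 15 rose in the CAT line and 16 in the Tbc1d23 line, against 29.2% and 7.56% of all genes. The difference was below 0 at 15, against 19.3%, and the median responses were 2.98 and 1.90. Nfkbia encodes the inhibitor that returns NF-kB to the cytoplasm. Its level rose from 4.80, 5.06 and 4.84 to 8.16, 8.41 and 8.25 in the CAT line. In the Tbc1d23 line it rose from 5.50, 5.40 and 5.49 to 6.96, 7.0 and 6.74. All arrays at 5 h lay above all at 0 h, and the difference in response was -1.94 ± 0.13 (adjusted p = 2.32e-08). Tnfaip3, the gene of the ubiquitin editor A20, kept less of its rise, from -1.15, -1.06 and -1.28 to 4.69, 4.82 and 4.88 in the CAT line and from -2.38, -2.49 and -1.97 to -0.94, -0.67 and -0.82 in the Tbc1d23 line (difference -4.49 ± 0.14, adjusted p = 8.87e-12). Nfkb1 (2.77 and 1.35), Nfkb2 (3.96 and 2.21) and the activating I-kappa-B protein gene Nfkbiz (5.43 and 2.14) were reduced. Rela, the subunit that is present at rest, had -0.01 in the CAT line, which was not called, and 0.24 in the Tbc1d23 line, which was.

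The promoter of Nfkbia (chr12:55492648-55492897, minus strand, the 250 bases before the RefSeq start on GRCm38.p6) is shown as an example of this list, with a kappa-B match in capitals at -29 to -20. The motif searched was GGGA, any base and TTTCC, on both strands.
Nfkbia: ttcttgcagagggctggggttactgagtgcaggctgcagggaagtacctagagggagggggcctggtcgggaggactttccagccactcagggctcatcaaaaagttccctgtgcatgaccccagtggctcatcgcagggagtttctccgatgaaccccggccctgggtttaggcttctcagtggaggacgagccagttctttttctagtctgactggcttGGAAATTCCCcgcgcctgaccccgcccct
This motif stood in 0.50% of all promoters of tested genes, in 1.31% of those with a weakened induction and in 3 of 14 of this list.

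Immediate early factors were mixed. Of 23 tested, 18 rose in the CAT line and 14 in the Tbc1d23 line, against 29.2% and 7.56% of all genes. The difference was below 0 at 17 and above 0 at 2, against 19.3% and 20.4%. Fos had responses of 1.98 ± 0.14 and 1.70 ± 0.14 and no called difference (95% interval -0.70 to 0.13), and Egr2 had 2.0 ± 0.18 and 2.08 ± 0.18 (95% interval -0.45 to 0.62). Egr1 rose by 2.57 in the CAT line, with -0.17 in the Tbc1d23 line, which was not called. Myc, a transcription factor that promotes growth, rose from -3.02, -2.39 and -2.74 to 3.50, 3.64 and 3.59 in the CAT line and from -3.89, -4.28 and -3.79 to -0.53, -0.55 and -0.08 in the Tbc1d23 line (difference -2.69 ± 0.23, adjusted p = 2.54e-07). Klf4, a factor of myeloid differentiation, fell in the CAT line (-1.1 ± 0.11) and rose in the Tbc1d23 line (0.96 ± 0.11), which had started at -4.14 relative to the CAT line. Jun fell in both lines (-1.98 and -0.97).

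Genes that restrain the signal were weakened with the rest. Of 15 negative regulators tested, 13 rose in the CAT line and 11 in the Tbc1d23 line, against 29.2% and 7.56% of all genes. The difference was below 0 at 14 and above 0 at 1, against 19.3% and 20.4%. The median responses were 4.07 and 0.46. Dusp1, a phosphatase of MAP kinases, rose from -0.42, -0.08 and 0.04 to 3.50, 4.08 and 4.15 in the CAT line and from 0.54, 0.59 and 0.32 to 1.05, 1.20 and 0.54 in the Tbc1d23 line. Its difference was -3.62 ± 0.13 (adjusted p = 5.12e-11), and the Tbc1d23 groups at 0 h and 5 h overlap unless taken within slides. Socs1, an inhibitor of JAK kinases, rose by 4.92 ± 0.16 and 0.50 ± 0.16. Socs3 rose by 5.12 and 1.89, Zfp36, which destabilises cytokine transcripts, by 4.07 and 0.98, and the endoribonuclease gene Zc3h12a by 4.84 and 2.68. Irak3, an inhibitory kinase relative, rose by 1.99 in the CAT line and had -0.48 in the Tbc1d23 line, which was not called. Its difference of -2.47 was called at this probe. A further Irak3 probe gave a difference of -0.42, not called, and a dimmer one -2.54, called.

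The receptor side differed less. Of 15 LPS receptor and adaptor genes, 11 rose in the CAT line and 6 in the Tbc1d23 line, against 29.2% and 7.56% of all genes. The difference was below 0 at 9 and above 0 at 1, against 19.3% and 20.4%. The median responses were 0.65 and 0.26. Cd14, the co-receptor, read 6.76, 6.65 and 6.67 and then 8.80, 8.68 and 8.66 in the CAT line. It read 7.45, 7.54 and 7.72 and then 7.97, 8.13 and 8.45 in the Tbc1d23 line, which started higher and ended lower, with a difference in response of -1.41 ± 0.07 (adjusted p = 1.23e-09). Tlr4 itself had -0.28 ± 0.14 in the CAT line, which was not called, and fell in the Tbc1d23 line (-0.62 ± 0.14). The difference at Tlr4 was -0.35 ± 0.20 (adjusted p = 0.197) and was not called. Myd88 rose by 1.74 and 0.31, Ticam1, the gene of TRIF, by 1.46 in the CAT line with 0.36 in the Tbc1d23 line, which was not called. Ikbke, an inducible kinase of the IRF3 branch, rose by 4.89 and 2.71. Traf3, an adaptor of that branch, had the opposite sign, with -0.16 ± 0.06, not called, and a rise of 0.60 ± 0.06. Among 19 other sensors and inflammasome genes, 15 rose in the CAT line and 9 in the Tbc1d23 line, and the difference was below 0 at 15. The shares over all genes were 29.2%, 7.56% and 19.3%. Nod1 rose by 3.85 in the CAT line with 0.17 in the Tbc1d23 line, and Clec4e, a C-type lectin, rose by 4.57 and 2.38.

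Among 25 inflammatory enzymes and effectors, 24 rose in the CAT line and 15 in the Tbc1d23 line, against 29.2% and 7.56% of all genes. The difference was below 0 at 22, against 19.3%. The median responses were 4.94 and 0.59 (4.51 and 0.59 with dim genes at their bound). Acod1, which makes itaconate, rose from 1.14, 1.60 and 1.33 to 9.81, 9.83 and 9.78 in the CAT line and from 2.57, 2.72 and 2.79 to 7.71, 7.83 and 7.61 in the Tbc1d23 line (difference -3.43 ± 0.18, adjusted p = 1.37e-09). Hdc, the histamine-forming enzyme gene, rose by 10.16 ± 0.15 and 3.03 ± 0.15, and Saa3, an acute-phase gene, by 9.22 and 2.32. Sod2, the mitochondrial superoxide dismutase gene, rose by 2.16 and 0.53. Nos2, the inducible nitric oxide synthase gene, was not well above background at 0 h in the CAT line and rose there at least 5.04-fold. In the Tbc1d23 line its fitted response was 0.25 ± 0.21, which was not called. Slpi, an inhibitor of proteases, began 4.68 higher in the Tbc1d23 line and had a difference of -4.36, but a second, dimmer probe gave -0.39, which was not called.

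The antigen presentation and costimulation list rose as a whole in the CAT line, 20 of 20, against 7 of 20 in the Tbc1d23 line. Over all genes 29.2% and 7.56% rose. The difference was below 0 at 18 and above 0 at 1, against 19.3% and 20.4%, and the median responses were 1.46 and 0.11. Tap1, a peptide transporter subunit, rose from -0.81, -1.22 and -1.14 to 2.88, 2.49 and 2.64 in the CAT line and read -2.30, -2.72 and -2.51 and then -2.66, -2.79 and -2.91 in the Tbc1d23 line, where its response of -0.28 ± 0.11 was not called. The immunoproteasome genes Psmb8 (1.39 and -0.08), Psmb9 (1.41 and -0.23) and Psmb10 (1.51 and 0.00) rose in the CAT line and had no called rise in the Tbc1d23 line. Cd40 kept part of a large rise, from -4.21, -4.11 and -4.23 to 4.74, 4.63 and 4.76 in the CAT line and from -2.08, -3.29 and -2.90 to 1.1, 1.13 and 0.80 in the Tbc1d23 line (difference -5.13 ± 0.30, adjusted p = 4.70e-09). Icam1, an adhesion molecule gene, rose by 2.68 and 1.71.

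Outside these lists, Apol9a and Apol9b, near-identical copies whose signal can be shared, had differences of -6.22 ± 0.27 and -6.30 ± 0.16 with no called Tbc1d23 response. Timp1 rose by 7.26 ± 0.24 and 1.08 ± 0.24. Wscd2 had 6.74 ± 0.18 and 0.56 ± 0.18, but a second probe of it gave a difference of -0.46 that was not called. Cracdl rose in the CAT line by 5.18 ± 0.23 and fell in the Tbc1d23 line (-0.79 ± 0.23). Col5a3, a collagen chain gene, was at least 692-fold brighter in the CAT line at 5 h than in the Tbc1d23 line at 5 h, and its second probe gave a difference of -2.61.

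**Figure D4:**
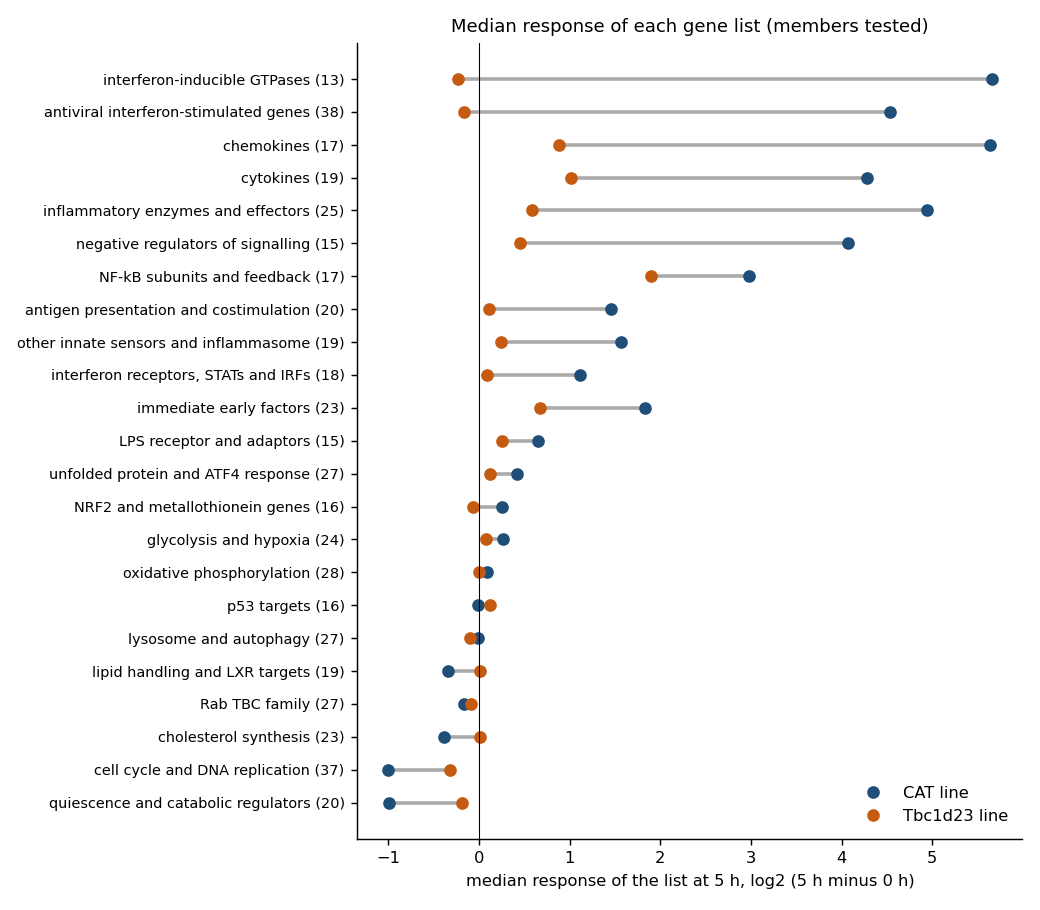
Median response at 5 h (log2) of each gene list in the CAT line and in the Tbc1d23 line, with the number of genes tested beside each name. The interferon-inducible GTPases (5.66 and -0.23), the chemokines (5.64 and 0.88) and the antiviral genes (4.54 and -0.17) have the largest gaps, and the oxidative phosphorylation list lies near 0 in both lines.

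Kept inductions included genes with large responses. C3, the complement component, read -0.06, -0.03 and 0.02 in the CAT line and 0.00, 0.17 and 0.33 in the Tbc1d23 line at 0 h. At 5 h it read 3.46, 3.59 and 3.60 and 3.40, 3.54 and 3.73. The lines nearly coincide at both times, with responses of 3.58 ± 0.10 and 3.39 ± 0.10 and a difference whose 95% interval was -0.49 to 0.11. Cd83, a surface protein of activated antigen-presenting cells, started at -2.33 relative to the CAT line and rose in parallel, from 3.90, 3.96 and 3.73 to 6.46, 6.41 and 6.33 and from 1.47, 1.59 and 1.54 to 3.94, 4.16 and 3.88 (95% interval -0.30 to 0.15). St3gal1, a sialyltransferase gene, rose by 2.70 ± 0.09 and 2.91 ± 0.09 (95% interval -0.05 to 0.48). Tgm2, a transglutaminase gene, rose by 3.15 ± 0.08 and 2.92 ± 0.08 at its brightest probe, but 2 further probes gave called differences of -2.39 and -3.07. The sign of the small difference turns under another scaling at C3, Cd83 and Tgm2.

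Relb, an NF-kB subunit, had a kept rise and a called, small difference. It rose from 0.70, 0.84 and 0.75 to 3.78, 3.76 and 3.70 in the CAT line and from 0.34, 0.50 and 0.45 to 2.82, 3.0 and 3.16 in the Tbc1d23 line, a difference of -0.42 ± 0.11 (adjusted p = 0.00665). That call was lost without Tbc1d23 replicate 1 (adjusted p = 0.0505), without the slide term (0.0902) and when arrays were scaled to their median (0.79). Fabp4, a fatty acid carrier of macrophages and fat cells, was 3.18 higher in the Tbc1d23 line at 0 h and rose slightly more there, by 2.73 ± 0.10 against 2.15 ± 0.10 (difference 0.58 ± 0.14, adjusted p = 0.00405; 0.0534 within the run that holds both lines).

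Enlarged inductions were few. Icosl, the ligand of the T cell costimulator ICOS, rose from -0.29, 0.52 and 0.35 to 2.21, 2.72 and 2.62 in the CAT line. It rose from -0.13, -0.04 and -0.20 to 3.26, 3.36 and 3.23 in the Tbc1d23 line. The lines overlapped at 0 h and the Tbc1d23 line was higher on every array at 5 h, with a difference in response of 1.09 ± 0.24 (adjusted p = 0.00199; 0.0757 within the run that holds both lines). Nab2, a corepressor of EGR factors, had responses of 1.12 ± 0.13 and 1.91 ± 0.13, but its levels varied between slides and the call was lost without the slide term (adjusted p = 0.626). Cxcl16, a chemokine and scavenger receptor, had 1.36 ± 0.18 and 2.26 ± 0.18. Its call was lost without Tbc1d23 replicate 1 or 2 or CAT replicate 2, and a further probe gave -0.12, not called.

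Among the 16 gained inductions, Gdpd5, a phosphodiesterase gene, fell in the CAT line from 1.39, 1.55 and 1.44 to 0.59, 0.43 and 0.36. It rose in the Tbc1d23 line from 1.40, 1.61 and 1.95 to 2.46, 2.68 and 3.14. The difference was 2.10 ± 0.10 (adjusted p = 9.62e-10), and the lines overlapped at 0 h and not at 5 h. Rasal1, a Ras GTPase-activating protein gene, fell in the CAT line (-0.29) and rose by 1.16 ± 0.10 in the Tbc1d23 line. Aqp8, a water channel gene, read -2.60, -1.25 and -1.73 in the CAT line and 0.20, -0.17 and 0.32 in the Tbc1d23 line at 5 h, with a difference of 1.86 ± 0.44 (adjusted p = 0.00378; 0.0981 without the slide term). Pgm5 had a difference of 1.5, but its other probe gave 0.18, not called. Adgre1, the gene of the macrophage antigen F4/80, rose by 0.46 and 1.46, with a difference of 1.0 ± 0.21 (adjusted p = 0.122 within the run that holds both lines). A second probe of Adgre1 gave 0.74, which was not called. Antxr2, an anthrax toxin receptor gene, rose by 0.85 and 1.32. Its call was lost without any of the 3 Tbc1d23 replicates or CAT replicate 2.

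Weakened repression was nearly as common as weakened induction at this scaling (1283 and 1295 genes). Under other scalings it was the more common, with 1524 against 1016 genes after median scaling, 1458 against 1071 after quantile normalization and 1453 against 1070 in the deposited values. Ranbp3l fell in the CAT line from 1.92, 1.65 and 1.67 to -2.84, -3.27 and -3.63. The fall in the Tbc1d23 line was from 4.07, 4.36 and 3.94 to 3.58, 3.40 and 3.28, so that at 5 h the lines differed by 6.67. The difference in response was 4.29 ± 0.14 (adjusted p = 1.55e-11). Sesn1, a stress-responsive inhibitor of mTORC1 signalling, fell from 5.0, 5.29 and 5.25 to 1.49, 1.34 and 1.32 in the CAT line and read 3.62, 3.88 and 4.22 and then 3.69, 3.73 and 4.41 in the Tbc1d23 line. The Sesn1 repression was lost, with a response of 0.04 ± 0.11 (adjusted p = 0.88) and a difference of 3.83 ± 0.15 (adjusted p = 9.18e-11). Fam131a (3.62), the neuralized-type ubiquitin ligase gene Neurl3 (3.36), the metalloproteinase gene Amz1 (3.33), Mtss1, a regulator of actin at membranes (3.25), and Rasgrp3, a Ras exchange factor gene (3.15), also had called differences. Bmf, a pro-apoptotic BH3-only protein gene, fell in the CAT line (-4.37) and rose in the Tbc1d23 line (1.13) at its brightest probe. Another Bmf probe gave a difference of -0.46 that was not called, so its direction differs by probe.

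Some repressed genes left the measurable range. Aatk, Trp53inp1, Rnf227 and Hpgd were not well above background in the CAT line at 5 h. Their levels at 0 h in that line were at least 14.5-fold, 14.5-fold, 9.89-fold and 28.7-fold higher. At 5 h the Tbc1d23 line was at least 16.8-fold brighter at Aatk, a kinase gene, 45.2-fold at Trp53inp1, a stress gene, 2.78-fold at Rnf227 and 2.48-fold at Hpgd, the gene of a prostaglandin-degrading enzyme.

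Regulators of quiescence and catabolism fell mostly in the CAT line. Of 20 tested, 14 fell and 2 rose in the CAT line, against 28.3% and 29.2% of all genes. In the Tbc1d23 line 5 fell, against 7.94% of all genes. The difference was above 0 at 12 and below 0 at 3, against 20.4% and 19.3% of all genes. Foxo1, a forkhead factor, read -0.16, 0.20 and 0.13 and then -1.71, -1.69 and -1.87 in the CAT line. It read -0.33, -0.09 and 0.17 and then -0.31, -0.11 and 0.14 in the Tbc1d23 line, with a response of -0.01 ± 0.10 that was not called (difference 1.80 ± 0.15, adjusted p = 1.65e-07). Ypel3 had responses of -2.72 ± 0.21 and -0.32 ± 0.21, the latter not called, and Klf9, a Kruppel-like factor gene, fell in both lines (-2.11 and -0.70). Rb1, the retinoblastoma gene, had -1.45 and -0.19, the latter not called. Tsc22d3, the gene of a glucocorticoid-induced leucine zipper, had a difference of 1.53, and its other probes gave 3.29 and 4.39. Ccng2 went against the list, with -0.10, not called, in the CAT line and a fall in the Tbc1d23 line (-0.95 ± 0.12).

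Cell cycle and replication genes fell in both lines, by less in the Tbc1d23 line. Of 37 tested, 35 fell in the CAT line and 23 in the Tbc1d23 line, against 28.3% and 7.94% of all genes. The difference was above 0 at 24 and below 0 at 1, against 20.4% and 19.3%. The median responses were -1.01 and -0.32. E2f2, a factor of the G1/S transition, fell from 4.96, 5.30 and 5.19 to 1.22, 1.14 and 1.19 in the CAT line. It fell from 4.0, 4.36 and 4.77 to 3.12, 3.30 and 3.79 in the Tbc1d23 line. The CAT arrays at 5 h lay far below all others, with a difference of 2.99 ± 0.13 (adjusted p = 3.41e-10). Mcm5, a subunit of the replicative helicase, fell from 4.82, 4.62 and 4.78 to 3.29, 2.77 and 2.94 and from 4.13, 4.34 and 3.85 to 3.69, 3.96 and 3.36 (difference 1.31 ± 0.09, adjusted p = 3.67e-08). Mcm2 (-2.27 and -0.45), Cdc6 (-2.69 and -0.67), Ccne2 (-2.58 and -0.76) and Rrm2 (-1.98 and -0.32), all of the G1/S programme, fell in both lines with called differences. The mitotic members were mixed. The differences of Ccnb1 (0.19), Plk1 (0.21) and Bub1b (0.08) were not called, while those of Kif20a (0.71) and Bub1 (0.60) were, as was that of the proliferation marker Mki67 (1.06). A second probe of Bub1 gave -0.27, which was not called. Cdk1 was the member with a called difference below 0 (-0.25 ± 0.08). In bulk RNA fewer cells of a type and less RNA per cell cannot be told apart.

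The promoter of Mcm5 (chr8:75109259-75109508, plus strand, 250 bases before the RefSeq start on GRCm38.p6) is shown for this list, with an E2F match in capitals at -149 to -142. The motifs searched were TTTCCCGC and TTTGGCGC on both strands.
Mcm5: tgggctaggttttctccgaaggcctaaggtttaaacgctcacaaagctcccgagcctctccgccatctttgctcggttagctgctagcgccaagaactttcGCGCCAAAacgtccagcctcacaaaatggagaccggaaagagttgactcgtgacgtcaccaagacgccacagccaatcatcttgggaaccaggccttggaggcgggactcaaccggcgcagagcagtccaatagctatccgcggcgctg
An E2F match stood in 2.75% of the promoters of tested genes, in 4.94% of those with a weakened repression and in 4 of 30 of this list. A forkhead match (GTAAACA) stood in 2.80% of all and 3.44% of those with a weakened repression.

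Cholesterol synthesis genes fell in the CAT line at 15 of 23 and in the Tbc1d23 line at 2 of 23, against 28.3% and 7.94% of all genes. In these lines 2 and 1 rose, against 29.2% and 7.56%. The difference was above 0 at 14 and below 0 at 1, against 20.4% and 19.3%. Dhcr7, which catalyses the last reduction to cholesterol, fell from 4.51, 4.73 and 4.64 to 2.06, 1.79 and 1.66 in the CAT line and read 3.07, 3.37 and 3.25 and then 2.92, 3.10 and 3.18 in the Tbc1d23 line. Its difference was 2.62 ± 0.17 (adjusted p = 1.52e-08), and it had started at -1.39 relative to the CAT line. Fdft1 and Sqle, the genes of squalene formation and oxidation, had differences of 0.50 and 1.15 and also started lower (-2.19 and -1.5). Among 19 lipid handling genes the difference was below 0 at 5 and above 0 at 6, against 19.3% and 20.4% of all genes. Abca1, the cholesterol exporter, rose by 3.32 ± 0.14 and 2.19 ± 0.14, while Scd2, a desaturase gene, fell in both lines (-2.36 and -0.44).

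Other members of the Rab TBC family were measured beside Tbc1d23. Of 27 tested, 4 rose and 13 fell in the CAT line, 4 rose and 3 fell in the Tbc1d23 line, and the difference was above 0 at 10 and below 0 at 2. Over all genes these shares were 29.2% and 28.3% in the CAT line, 7.56% and 7.94% in the Tbc1d23 line, and 20.4% and 19.3% for the difference. Tbc1d16 had responses of -2.80 ± 0.18 and -0.67 ± 0.18, Tbc1d14 -1.41 ± 0.11 and -0.14 ± 0.11, and Tbc1d1 rose by 1.62 ± 0.09 and 0.53 ± 0.09. Tbc1d2 had a difference of 2.75 at its brightest probe and 0.02, not called, at another.

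Kept and gained repressions were smaller groups. Cped1 fell from -1.48, -1.05 and -1.18 to -3.31, -3.16 and -2.79 in the CAT line and from -0.59, -1.25 and -1.5 to -2.74, -3.18 and -3.49 in the Tbc1d23 line (95% interval of the difference -0.82 to 0.46), and the sign of its difference turns under another scaling. Ppargc1b, a coactivator of mitochondrial genes, fell in both lines (-1.73 and -1.33), and its called difference of 0.40 was lost without Tbc1d23 replicate 1 or 3 or CAT replicate 2. A pair of further Ppargc1b probes gave larger called differences, 0.93 and 0.89, so its place among the kept repressions rests on the brightest probe. Frmd4b had -1.70 and -1.82, with a difference of 0.62 (adjusted p = 0.041) at another probe. Fcgr3, an Fc receptor gene, had a difference of 0.83 and a second probe at -0.57, so its direction differs by probe. Bahcc1 rose in the CAT line by 0.40 and fell in the Tbc1d23 line from 0.26, 0.69 and 0.04 to -0.65, -0.48 and -0.96, a gained repression with a difference of -1.43 ± 0.12 (adjusted p = 2.25e-07). Gpr152, an orphan receptor gene, had 0.70 ± 0.30, not called, and -1.26 ± 0.30.

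Metabolic and stress lists showed smaller differences. Of 27 genes of the unfolded protein and ATF4 response, 19 rose in the CAT line and 3 in the Tbc1d23 line, against 29.2% and 7.56% of all genes. The difference was below 0 at 14 and above 0 at 1, against 19.3% and 20.4%. Chac1, a glutathione-degrading enzyme gene of the ATF4 branch, rose from -0.68, -0.31 and -0.40 to 3.55, 3.72 and 3.79 in the CAT line and read 0.54, 0.85 and 1.33 and then 0.78, 0.81 and 1.5 in the Tbc1d23 line (difference -4.03 ± 0.25, adjusted p = 1.00e-08). Ddit3 (1.38 and -0.11) and Asns (1.54 and 0.16) rose in the CAT line and had no called rise in the Tbc1d23 line, while the chaperone genes Hspa5 and Calr had differences of -0.79 and -0.22. Of 16 NRF2 and metallothionein genes the difference was below 0 at 8 and above 0 at 2, against 19.3% and 20.4% of all genes. Slc7a11, the cystine transporter gene, rose by 4.55 ± 0.11 and 0.58 ± 0.11. Of 24 glycolysis and hypoxia genes the difference was below 0 at 9 and above 0 at 3, against 19.3% and 20.4% of all genes. Slc2a1, a glucose transporter gene, rose by 1.91 and 0.55.

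Of 28 oxidative phosphorylation genes, 3 rose and 1 fell in the CAT line by the limma test, against 29.2% and 28.3% of all genes. In the Tbc1d23 line 0 rose and 0 fell, at an adjusted as well as at an unadjusted p under 0.05. At the adjusted p 7.56% of all genes rose and 7.94% fell in that line. In this list 1 difference was called, against 39.7% of all genes. That gene, Sdha, had 0.33 ± 0.11, with a further probe at 0.40, also called, and a dimmer one at -0.61, not called. The call at the brightest probe was lost without Tbc1d23 replicate 2 or 3 or CAT replicate 2 or 3. Of 27 lysosome and autophagy genes the difference was below 0 at 7 and above 0 at 6, near the 19.3% and 20.4% of all genes. Of 16 p53 targets the difference was below 0 at 5 and above 0 at 6, against the same shares, and 3 were weakened repressions. Fas, the death receptor gene, rose from -2.05, -1.83 and -1.81 to 5.86, 5.88 and 5.89 in the CAT line. In the Tbc1d23 line Fas rose from -2.61, -3.04 and -2.40 to 0.15, 0.21 and 0.86. Mdm2 rose by 1.81 and 0.35. Trp53inp1, described above as dim in the CAT line at 5 h, had a called difference above 0. The medians of the NRF2, glycolysis, oxidative phosphorylation and p53 lists lie near 0 and change sign under another scaling.

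Responses at 1 h and 3 h share the 0 h arrays with the responses that chose the genes, so they are given as a description. Among the 1295 weakened inductions, 251 had a called rise of at least 2-fold in the CAT line at 1 h and 925 had one at 3 h. In the other line there were 73 at 1 h, 192 at 3 h and 174 at 5 h. Of all genes tested, 1.65% had such a rise in the Tbc1d23 line at 5 h, and the shares at 1 h and 3 h were not counted. Their median responses in the CAT and the Tbc1d23 line were 0.20 and -0.02 at 1 h and 1.64 and 0.18 at 3 h. Tnf rose by 7.11 and 5.26 at 1 h, by 7.41 and 2.46 at 3 h and by 6.52 and 2.12 at 5 h. Tnfaip3 rose by 8.30 and 7.19 at 1 h, by 7.22 and 3.26 at 3 h and by 5.96 and 1.47 at 5 h. In the Tbc1d23 line both rises were larger at 1 h than at 5 h, and the differences at 1 h were -1.84 (adjusted p = 3.11e-07) and -1.11 (adjusted p = 1.37e-04). Cxcl10 rose by 8.08 and 4.33 at 1 h and by 9.30 and 5.75 at 3 h. Ifit1 had 4.22 and 0.25 at 1 h and 10.01 and 0.31 at 3 h. The weakened repressions had medians of -1.12 and -0.26 at 3 h.

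**Figure D5:**
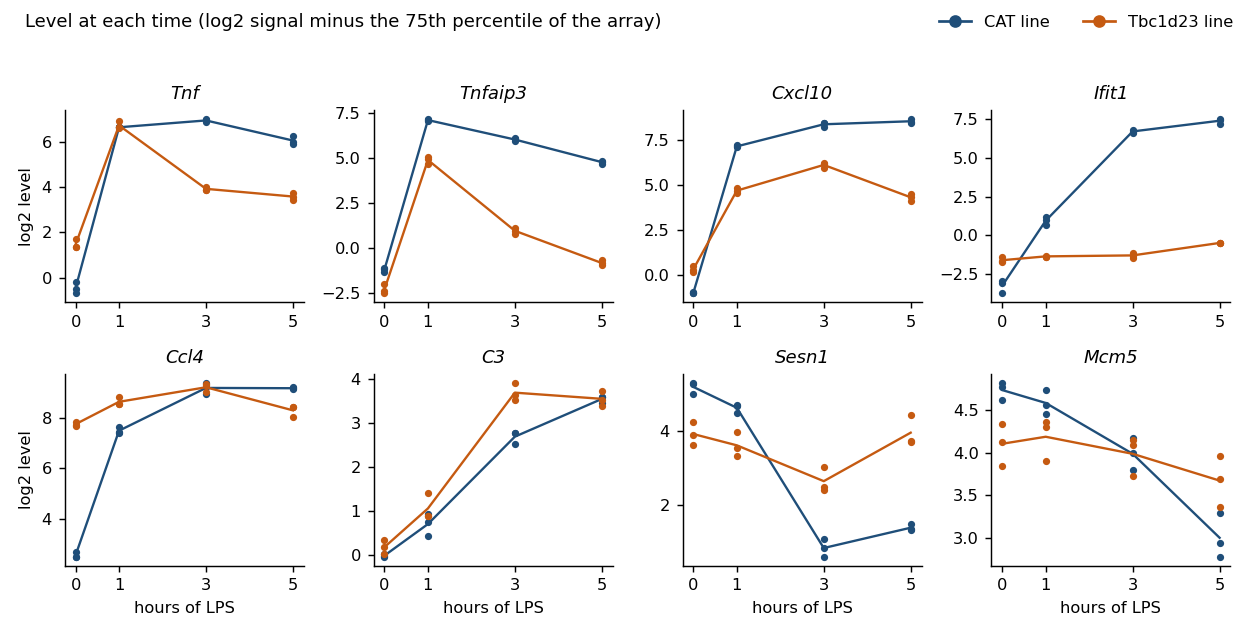
Level of 8 genes (vertical axis, log2 signal relative to the 75th percentile of the array) against hours of LPS in the CAT and the Tbc1d23 line, with a point for each array and lines through the group means. Tnf and Tnfaip3 peak at 1 h in the Tbc1d23 line, with responses of 5.26 and 7.19, whereas Ifit1 stays near its starting level there and climbs by 10.71 in the CAT line by 5 h.

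Macrophage markers were measured in both lines, with 24 of 25 tested and a summed linear level of 1757 to 1971 in the CAT line and 1215 to 1667 in the Tbc1d23 line at 0 h, and 2101 to 2219 and 1285 to 1795 at 5 h. The difference was below 0 at 7 of 24 and above 0 at 8, against 19.3% and 20.4% of all genes. Csf1r, the receptor of the macrophage growth factor, read 6.60, 6.63 and 6.57 and then 5.76, 5.59 and 5.65 in the CAT line, and 5.38, 5.56 and 6.12 and then 5.39, 5.72 and 6.30 in the Tbc1d23 line. Cx3cr1, the fractalkine receptor gene, started at -3.80 relative to the CAT line and had a difference of 1.35 ± 0.21. A second Cx3cr1 probe gave 0.93, which was not called. Fcgr1, an Fc receptor gene, went the other way, with responses of 2.04 in the CAT line and -0.36 in the Tbc1d23 line. Its difference was -2.39 and a second Fcgr1 probe gave -2.90, both called. Cebpa, a myeloid lineage factor, fell in the CAT line from 0.72, 0.63 and 0.56 to -1.51, -1.57 and -1.63 and rose in the Tbc1d23 line from -1.71, -1.51 and -1.54 to -1.17, -0.88 and -0.95 (difference 2.79 ± 0.16, adjusted p = 4.26e-09). A second, dimmer probe of Cebpa gave a called difference of 1.38 with a Tbc1d23 response of -0.10, so the rise was not seen there. Osteoclast markers summed to 15.2 to 19.0 in the CAT line and 8.46 to 9.65 in the Tbc1d23 line at 0 h, and to 50.5 to 53.4 and 10.4 to 12.7 at 5 h. Of 8 dendritic markers 5 passed the background filter. They summed to 1.68 to 2.22 in the CAT line and 0.526 to 0.984 in the Tbc1d23 line at 0 h, and to 5.99 to 7.43 and 0.976 to 1.27 at 5 h. Of the T and NK cell markers 4 of 10 passed, while Cd3d, Cd3g and Cd8a were on the array and did not. Those that passed summed to 0.641 to 1.06 in the CAT line and 3.00 to 3.29 in the Tbc1d23 line at 0 h, and to 1.82 to 1.95 and 3.98 to 4.20 at 5 h. The 3 of 8 B cell markers that passed, without Cd79a and Ms4a1, summed to 0.180 to 0.411 and 0.868 to 1.57 at 0 h. In either line only 1 of these 3 was then well above background on all 3 arrays. The 5 of 11 granulocyte and erythroid markers that passed summed to 0.365 to 0.498 and 0.575 to 1.13 at 0 h. The 3 of 9 fibroblast and epithelial markers that passed, without Col1a1, Epcam and Cdh1, summed to 0.414 to 0.502 and 0.113 to 0.501 at 0 h and to 1.1 to 1.28 and 0.178 to 0.211 at 5 h. At 0 h in the Tbc1d23 line 0 of these 3 were well above background on all 3 arrays. So the lines stood apart in the sums of most of these lists, but the sums include signal that was not above background. The part of these genes in the results was not tested.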

How the data were processed

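RNA of 24 samples of RAW264.7 cells was measured on 1-colour Agilent arrays, 1 array per sample. The authors deposited scanner output, made per the file headers with version 10.7.1.1 of Agilent Feature Extraction, whose processed signal intensity is background-subtracted on a linear scale, and a table of normalized values. That deposited table is on a log2 scale with every column at the same median of 3.873, as found from its values. The submitters' processing notes name RMA and Partek without versions. Probe coordinates are on mm9 per the file headers.

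Control spots and outlier spots were left out and spots of a probe were averaged. The processed signal was taken to log2 and the 75th percentile of each array subtracted, with no pseudocount. Probes were kept if every one of the 3 arrays of some group had them well above background (21961 probes, 8 groups), and each gene took its brightest kept probe (15067 genes, of which 12457 are named by symbol and 5084 had several probes). Gene names were updated through RefSeq for 2019 genes. limma 3.58.1 in R 4.3.3 was fitted to all 24 arrays with the slide (line by replicate number, 6 slides) as a fixed effect. Line differences at 1 time were fitted without it. Of the genes, 41 had a missing value on some of the 12 arrays. No column belonged to another series.

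Deviations from group means of arrays of the same slide correlated at 0.45 to 0.74 between 0 h and 5 h and at 0.19 to 0.83 over all pairs of times, so same-numbered arrays of a line were treated as paired. The pairing comes from the shared slide and from the replicate numbers of the labels. On simulated arrays of 15067 genes the test of the difference at 5 h recovered 51% of changes of 1 log2 unit and 74% of changes of 2, and 3.1% of its calls were false. Only 100 genes of each size were changed there, with normal noise and an assumed correlation within slides. In the data 39.7% of genes were called, so the rates there can differ.

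Comparisons, gene lists and response classes were chosen with earlier results of these data known, so no list is independent support. For each class, genes were named among those with a symbol and well above background on all 12 arrays of 0 h and 5 h. They had the largest differences or, where kept, the largest responses averaged over both lines. Genes with the largest called differences that were dim in a whole group were added, as were those of the lists given here. Genes named beyond that rule from the lists were picked after their values were seen. Alternatives were other scalings, background corrections, filters, probe rules, blocks, arrays, the slide run, each replicate left out, and, added after seeing the data, a background fit with replaced parameters. The number of arrays limits the precision.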

Additional observations from a re-analysis of the deposited data

Results flagged for a closer look

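At 13 of the named genes both responses at 5 h passed the test with opposite signs, and every slide of one line moved one way and every slide of the other line the opposite way. The difference between the responses (Tbc1d23 minus CAT, log2, limma) was itself tested and called at each. It was below 0 at genes that rose in the CAT line and fell in the Tbc1d23 line. These were Mx1 (-9.65), Ifi47 (-7.07), Usp18 (-6.22), Cracdl (-5.97), Stat2 (-3.76), Irf1 (-3.28) and Tap2 (-2.55), and Bahcc1 (-1.43) with a small rise in the CAT line. It was above 0 at genes that fell in the CAT line and rose in the Tbc1d23 line. These were Bmf (5.50), Cebpa (2.79), Gdpd5 (2.10), Pgm5 (1.5) and Rasal1 (1.46). Mx1 was not well above background in the CAT line at 0 h or the Tbc1d23 line at 5 h, so its fitted value is no bound. Other probes of Bmf and Pgm5 gave no called difference, and another of Cebpa gave a called difference of 1.38 without a rise in the Tbc1d23 line.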

How the results depend on the processing

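Smaller responses in the Tbc1d23 line held their direction for most results, and counts moved more than directions. Over the 124 named genes, the number kept on the same side of the threshold was lowest with the normexp background correction as planned, at 51, with 69 weaker. That correction could not be fitted well on 6 arrays. It left 222 called differences (181 below 0, 41 above 0), 1382 called CAT responses, 7 called Tbc1d23 responses, 179 weakened inductions, 38 weakened repressions, 1 kept response and 0 gained or enlarged ones by limma. With the parameters of these arrays replaced by the median of the others, chosen after seeing the data, 122 of the 124 genes were the same, while counts fell to 829 weakened inductions, 717 weakened repressions and 12 gained or enlarged responses.

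Without the replicate block 3463 differences were called (1641 below 0, 1822 above 0), 912 Tbc1d23 responses, 83 kept responses and 26 gained or enlarged ones, and 8 calls were lost. Within the slide run that holds both lines these were 3579 differences (1631 above 0), 789 Tbc1d23 responses, 41 kept and 298 gained or enlarged. Median scaling gave 1102 differences below 0, 1114 Tbc1d23 responses and 100 kept responses. Without a filter on dim probes there were 4492 differences below 0, 3842 Tbc1d23 responses and 1128 gained or enlarged ones, and with a filter on all 24 arrays 852 weakened inductions and 16 gained or enlarged. With the 12 arrays of 0 h and 5 h alone, 1361 Tbc1d23 responses were called. The weakened share of inductions ran from 72.8% (median scaling) to 88.6% and that of repressions from 67.7% (within the run) to 90.8%, apart from the planned normexp at 35.9% and 6.39%.

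Leaving out 1 replicate gave 4608 to 6219 called differences, 2331 to 2950 below 0 and 2277 to 3501 above 0, 7262 to 8597 CAT responses, 1243 to 1320 weakened inductions and 1213 to 1374 weakened repressions. Called Tbc1d23 responses ran from 1357 to 3159 and were 1492, 1449 and 1357 without Tbc1d23 replicates 1, 2 and 3. Kept responses ran from 121 (without CAT replicate 2) to 188, and gained or enlarged ones from 32 (without CAT replicate 2) to 136 (without Tbc1d23 replicate 2), with 90 without Tbc1d23 replicate 1.

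Small differences changed sign. Tgm2 was 0.24 with quantile normalization, 0.078 with median scaling and 0.23 with the deposited values, and Cd83 0.12, 0.24 and 0.12. With median scaling C3 was 0.12, Cped1 0.14, Frmd4b 0.19 and Tbc1d23 0.081. With the planned normexp St3gal1 was -0.26, Cped1 0.45, Frmd4b 0.38 and Sdha -0.0031, and Frmd4b was 0.25 with the mean of its probes and 0.18 with the replaced parameters. The causes were not tested.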
